A study of Danio rerio with 9 samples.

Results

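The 3 control arrays of the series, of 9 in all, measured the RNA of the inner ear of zebrafish (Danio rerio) that had not been exposed to sound. The ears came from adult breeder fish kept in the silent sound chamber for as long as the other groups were exposed, and both whole ears of each fish (saccule, lagena, utricle and semicircular canals) were pooled over 18 to 20 fish into 1 RNA sample. The pool was labeled with Cy3 and hybridized to 3 one-color arrays of 21495 probes, each printed on 2 spots, so that the arrays are technical replicates and give no measure of how fish differ. A probe is said here to be detected where the scanner software marked it well above background on both spots of all 3 arrays, 6 spots in all. Detected probes were ranked by level, which is the mean over the 3 arrays of the log2 signal relative to the 75th percentile of the array. A level of 0 is that percentile, and a step of 1 is a 2-fold step in fluorescence. The brightness of a probe is only a rough guide to the abundance of its transcript, because probes differ in how well they bind, and no level below is a comparison of transcript numbers between genes.

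The ear of teleost fish is a set of fluid-filled sacs and canals. In each sac and canal, mechanosensory hair cells stand in an epithelium of supporting cells, and their bundles of stereocilia are moved by an otolith, a calcium carbonate stone on a protein matrix, or by a gelatinous cupula. Hair cells open transduction channels when tip links between stereocilia are pulled and release glutamate at ribbon synapses onto the fibers of the eighth nerve, whose axons are myelinated. Supporting and other non-sensory cells make the potassium-rich endolymph and the otolith matrix, and in fish they give rise to new hair cells throughout life.

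Of the 21495 probes, 9764 were detected (45.4%), 8506 were above background on no spot, and the other probes were above background on 1 to 5 spots. The share of spots above background was 55.8%, 54.7% and 47.3% on arrays 1, 2 and 3. The local background of array 3 had a median of 129 fluorescence units against 72 and 66 on arrays 1 and 2, and 1399 probes were missed only through array 3, against 8 through array 1 and 0 through array 2. No spot of these probes was saturated. Levels of detected probes ran from 8.43 to -3.29, with a median of 0.27. Just inside the rule, the dimmest 5% of the detected probes were at or below -2.54, and just outside it, the 563 probes above background on 5 of the 6 spots had a median level of -3.09. RNA spiked into each array gave signals that followed its concentration over 4.57 to 4.99 powers of 10, per the file headers. The slope was 0.975 to 1.01 and the R squared 0.994 to 0.997. The brightest spiked RNA was at a level of 7.57, 7.76 and 7.72 on arrays 1 to 3, so that this check does not cover brighter probes. For the detected probes the median SD over the 3 arrays, taken on the means of 2 spots, was 0.0464 on the log2 scale. The median absolute difference between the 2 single spots of a probe on an array was 0.0698. This is another measure, and the 2 values cannot be compared directly.

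A current gene name could be given to 10373 probes, which stand for 7251 genes. At least 1 probe was detected for 4683 of these genes (64.6%), 812 were above background on some spots only, and 1756 on no spot. Among the genes with a detected probe, the median level, taken from the brightest probe of each gene, was 0.81, and the middle 50% lay between -0.64 and 2.27. These values are the background against which the lists below are read, and a gene is said to be on the array where a probe could be matched to it by name. Of the 11122 probes that kept the name in the files, most of them cDNA clones or predicted transcripts, 31.6% were detected. Among the named probes this share was 72.3% for matches by accession, 57.7% by gene number, 41.9% by symbol and 27.3% by clone name or synonym. A gene given below as above background on no spot is thus one whose named probes gave no such signal, and it may still be expressed.

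The brightest probes of the unexposed ear were those of the translation machinery. Of the 100 brightest, 47 were named or described as cytosolic ribosomal proteins and 7 were described as ribosomal RNA or its spacer, and these 100 probes held 25.5% ± 1.2 (SD, n = 3) of the summed signal of all probes. The brightest of all, at 8.43, held 0.62% of the summed signal. The files describe it as acidic ribosomal protein P1, but it shares 48 of its 60 bases with the fifth brightest probe (8.04), which they describe as ribosomal protein S29, so that these descriptions cannot both name the transcript measured. The pair is placed at chr1:74641-74712, and the nearest probes of the 100 brightest on either side, at chr1:66767-66826 and chr1:88765-88824, are described as ribosomal RNA. The SDs of the pair over arrays were 0.18 and 0.23, and which transcript the pair measures was not tested. Without it, 45 of the 100 brightest and 15 of the 40 brightest were ribosomal protein probes. The 209 probes for cytosolic ribosomal proteins held 19.2% ± 0.64 (SD, n = 3), or 18.1% ± 0.52 without that pair, although 38 of them were above background on no spot. By gene, 67 of 69 cytosolic ribosomal proteins were detected with a median level of 6.22, rps2 (8.04), rpl7 (7.73) and rps25 (7.73) leading. For rpl10 and rps19 the only named probe was in each case above background on no spot, yet a probe described as ribosomal protein L10 was the 63rd brightest, at 6.67, 6.92 and 6.86 on arrays 1 to 3.

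The brightest probes for ribosomal RNA were less even between arrays than those for ribosomal proteins. Of 24 probes described as ribosomal RNA, 16 were detected, at a median rank of 297.5, and 3 were above background on no spot. The 7 among the 100 brightest had a median SD of 0.22, with a highest of 0.59, against 0.0848 for the ribosomal protein probes. The brightest, described as 28S, was at 8.13, 8.50 and 8.54 on arrays 1 to 3, and the probe described as 18S was at 5.83, 6.85 and 6.86. Array 1 was the lowest in both. Array 1 was also the lowest of the 3 for 39 of the 40 brightest probes, while array 2 was the highest for 35, and their mean level was 7.39, 7.64 and 7.58 on arrays 1 to 3. Over all detected probes the arrays had means of 0.49, 0.50 and 0.50.

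**Figure D1:**
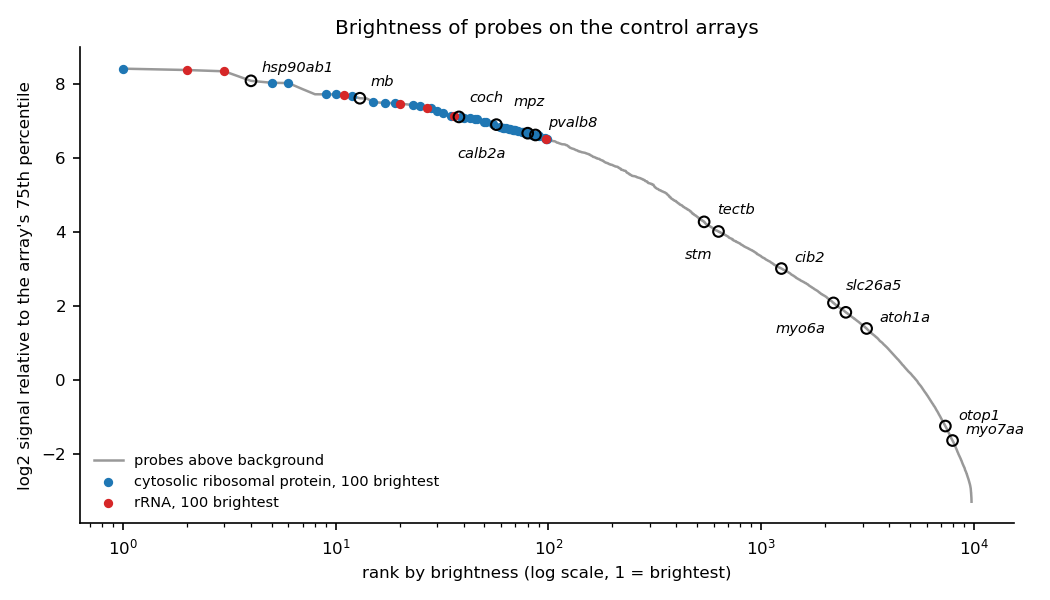
Level of every detected probe (y axis, log2 signal relative to the 75th percentile of the array, mean of 3 control arrays) against its rank by brightness (x axis, log scale). Blue and red points are the ribosomal protein and ribosomal RNA probes among the 100 brightest, and open circles mark the brightest probe of named genes, from hsp90ab1 at 8.10 to myo7aa at -1.63.

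Among the 40 brightest probes, 17 belonged neither to ribosomal proteins nor to ribosomal RNA. The gene hsp90ab1, a cytosolic chaperone of the Hsp90 family, took 3 of the first 8 places, and its brightest probe was at 8.01, 8.18 and 8.10 on arrays 1 to 3. The probes of this gene at ranks 7 and 8 were placed 1 base apart, and its other probes were at 5.87 to 1.32 on the mean. Myoglobin (mb), the oxygen-binding protein of muscle, was at ranks 13 and 24, the brighter probe at 7.45, 7.74 and 7.69. Next came 1 probe for vangl2 (7.62), a planar cell polarity gene treated below with its other probes, the iron storage protein ferritin heavy chain (fth1a, 7.51), beta globin (ba2, 7.50, and hbba1, 7.46) and glutamine synthetase (glulb, 7.46). The others were a clone similar to mitochondrial cytochrome c oxidase subunit I (7.40), the elongation factor eef2b (7.35), calmodulin (calm1a, 7.25), keratin 8 (krt8, 7.20), the translationally controlled tumor protein tpt1 (7.16), the glycolytic enzyme aldocb (7.14) and cochlin (coch, 7.12). Cochlin is a secreted matrix protein of the inner ear, known in human from an inherited deafness with balance disorder. Its probe (danRer2 chr1:16792009-16792068) was at 7.02, 7.22 and 7.12 on arrays 1 to 3, so that the spread between arrays was narrow against its distance from the median probe.

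The ribosomal protein genes with a current name among the 40 brightest probes included rps2, rpl7, rps25, rpl26, rpl8, rpl7a, rps27a, rps3a, rpl24, rpl13a and rpl11, at 8.04 to 7.09. Of the elongation factors 10 of 12 genes were detected, at a median of 3.68, with eef2b (7.35), eef1g (6.89) and eef1a1l1 (6.36) brightest. Initiation factors, a family taken by gene name, were detected for 36 of 42, at a median of 2.75. The brightest of the family was eif4ebp3l (5.83), whose product binds the cap-binding factor and is not itself an initiation factor. Next were eif3d (5.56) and eif3ea (5.48). The ribosomal proteins of mitochondria were much dimmer as a group, 23 of 29 detected at a median of 0.61, with mrpl38 (2.69), mrpl11 (2.38) and mrpl19 (1.95) at the top.

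Subunits of the respiratory chain, which makes ATP in mitochondria, were detected almost throughout. All 11 subunits of cytochrome c oxidase (median 4.39; cox4i1 5.89, cox7c 5.67, cox5ba 5.16) and all 11 of the ATP synthase (median 4.83; atp5f1c 5.52, atp5pb 5.32, atp5po 5.09) were detected. Complex I had 19 of 20 (median 3.00), led by ndufs1 (5.07), ndufb8 (4.34) and ndufa4a (4.29), and complex III 4 of 5, led by uqcrfs1 (4.47), uqcrq (3.50) and uqcrc2b (3.23). Complex II stood at 3 of 4, and its members were far apart, sdha at 5.29, sdhda at -0.76 and sdhc at -2.44. All 4 probes placed on the mitochondrial chromosome were detected and lay among the 1000 brightest, ATP6 at 5.51.

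Families of protein turnover, chaperones, the vacuolar proton pump, tubulins and histones were also detected in most members, where 64.6% of all named genes were. Of the proteasome subunits 35 of 37 were detected (median 2.61; psma1 4.53, psmb4 4.36, psma8 4.07), of the chaperonins and heat shock proteins 46 of 52 (median 1.95; after hsp90ab1, hspa8 at 6.18 and cct7 at 4.92), of the vacuolar proton pump 17 of 18 (median 2.55; atp6v0cb 4.33, atp6v1g1 4.32, atp6v1d 3.53) and of the cathepsins, lysosomal proteases, 9 of 10 (ctsla 5.52, ctsba 4.31, ctsd 3.49). Tubulins were detected in 9 of 11 cases, tuba8l4 (6.81), tubb4b (6.57) and tuba5 (4.44) leading, and histones in 8 of 10, with h2ax1 (4.29), h3f3c (4.2) and h3f3a (3.92).

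**Figure D2:**
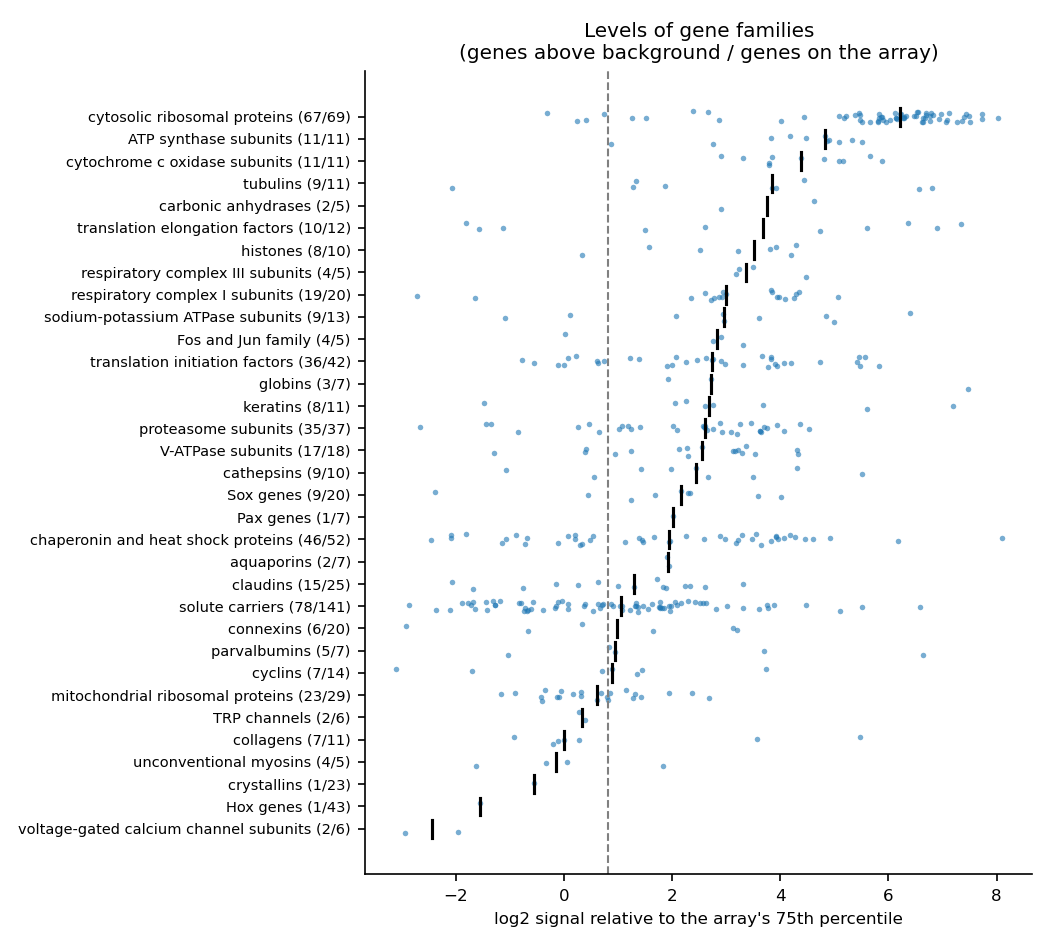
Each point is a detected gene at the level of its brightest probe (x axis, log2 signal relative to the 75th percentile of the array, mean of 3 control arrays), by gene family (y axis, detected genes over genes on the array, families of 5 genes or more). Black bars are family medians and the dashed line is the median of all detected genes, 0.81, and the cytosolic ribosomal proteins have the highest median, 6.22.

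Genes that act in hair cells were found over the whole range of brightness. The 5 hair cell lists held 112 genes, of which 48 were matched to a probe, and 33 of these 48 were detected (68.8%, against 64.6% of all named genes), 6 were above background on some spots and 9 on no spot. Their median level was 1.4. The lists include genes of every cell, such as actb1, actb2 and the calmodulins, so that neither the share nor the median describes hair cells alone. Many of the genes best known from hair cells, among them tmc1, tmc2a, otofb, pou4f3, slc17a8, pvalb9 and s100t, were not matched to a probe by name and were not analysed here. In a pool of whole ears, fewer cells of a type and less RNA per cell cannot be told apart, and this holds for every list below.

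The brightest genes of the hair cell lists were on the list of calcium pumps and buffers. Of 9 genes on this list 8 were detected, with a median level of 6.23. This median includes the calmodulins, which are genes of every cell. Calmodulin, the general calcium sensor, was detected for calm1a (7.25), calm2b (6.59), calm1b (5.86) and calm3a (4.1), and calm2a was above background on no spot. The calretinin gene calb2a was at 6.67, 6.68 and 6.69 on arrays 1 to 3 (chr18:26059797-26059856), and its copy calb2b was at 0.50, 0.90 and 0.92. Calretinin buffers calcium in hair cells and in neurons, so that its list does not tell the cells apart. The parvalbumin pvalb8, annotated in the files as oncomodulin A and a buffer known from hair cells, was at 6.60, 6.69 and 6.61 (chr3:44759460-44759519), and its second probe was at 5.70, 5.79 and 5.73. The 3 arrays were close for both probes of pvalb8. The plasma membrane calcium pump atp2b1a, which clears calcium from the bundle, was at 0.52, 0.51 and 0.49.

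Of the transduction apparatus, 3 of 12 listed genes could be found by name. The calcium and integrin binding protein cib2, which is part of the transduction channel complex in mice and fish, was detected at 3.12, 2.95 and 2.99 on arrays 1 to 3. The tip link genes cdh23 and pcdh15b were above background on no spot.

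In the list of the bundle and its actin core, 10 of 13 genes were detected. Cytoplasmic actin led (actb2 at 6.33, 6.61 and 6.45, and actb1 at 6.18 on average), followed by the membrane linker moesin (msna, 2.96). These are genes of every cell. The motors and bundle proteins were dimmer. Myosin VI, which anchors the base of the stereocilia, was at 1.85, 1.82 and 1.84 for myo6a, while myo6b, the copy known from zebrafish hair cells, was above background on some spots only. The giant ankle link receptor adgrv1 was at 0.29, 0.18 and 0.08, myo3a at 0.06, 0.05 and 0.07, and the Usher syndrome myosin myo7aa at -1.64, -1.61 and -1.63. Each of these motors was nearly level between arrays, and adgrv1 less so. The actin bundlers pls1 (-0.70) and pls3 (-1.20) and the polarity gene gpsm2 (-1.80) were also detected, clrn1 was above background on some spots and fscn2b on none.

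The ribbon synapse list was the least detected of the hair cell lists apart from the 3 genes of the transduction apparatus, with 3 of 8 genes. The fusion factor nsfa was at 3.93, ctbp2a, whose gene also encodes the main protein of the ribbon, at 0.46, 0.42 and 0.41, and the calcium binding protein cabp1b at -2.03. The presynaptic calcium channel cacna1da, the calcium sensor otofa, dmxl2 and synj1 were above background on no spot, and ctbp1 on some. Hair cell transcription factors were detected for 11 of 15 genes. Six1b (3.91), tbx2b (2.97) and nr2f1a (2.96) were brightest, and these factors act in other ear cells too. A detected probe with no current gene name, placed 14 bases from that of six1b, was at only 0.38 on the mean. Atoh1a, the factor that commits cells to the hair cell fate, was at 1.44, 1.39 and 1.36 on arrays 1 to 3 (chr8:23345216-23345274). Pou4f1 was at 1.97, gfi1ab at 1.16, nr2f2 at 0.50, six1a at 0.02, insm1b at -1.92, prdm1a at -2.57 and rfx2 at -3.23, while emx2, insm1a and lhx3 were above background on some spots and barhl1a on none.

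Prestin (slc26a5), the motor protein of outer hair cells in mammals, was on none of these lists and, like the otospiralin transcript and ependymin, was chosen after its value was seen. It was at 2.14, 2.06 and 2.08 on arrays 1 to 3. A transcript described as otospiralin, a small protein of the ear's fibrocytes in mammals, was at 3.11 on each array. Ependymin (epd), a secreted glycoprotein of the fish brain's fluid and meninges, was at 6.18, 6.43 and 6.46 for the brighter of its 2 detected probes. Of these, ependymin was the least even between arrays, with array 1 the lowest.

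**Figure D3:**
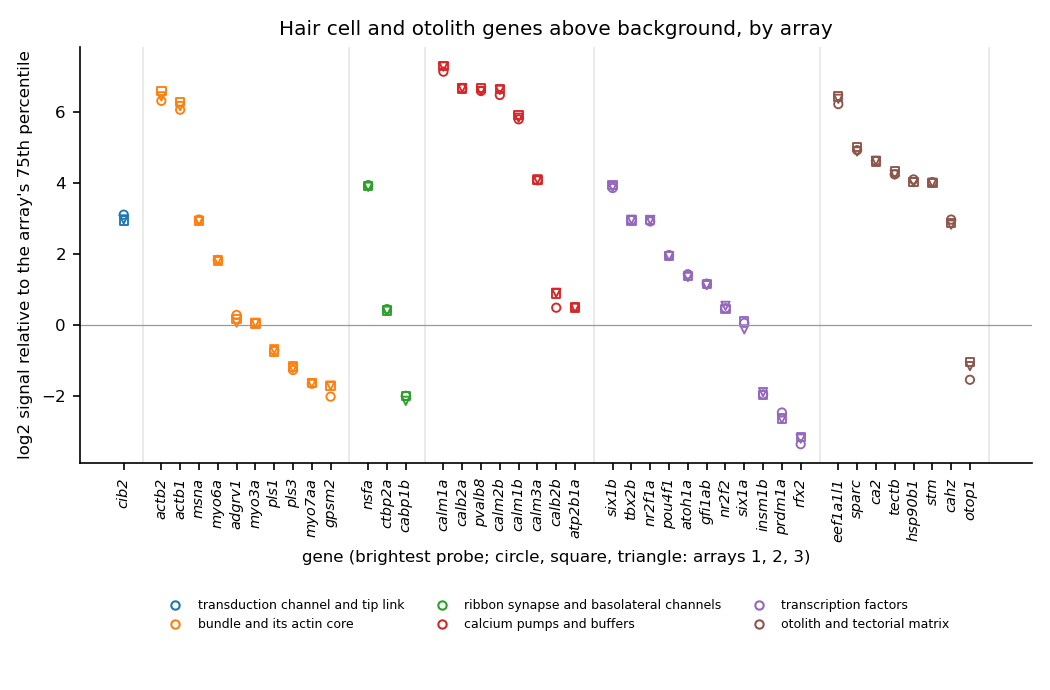
Level on each of the 3 control arrays (y axis, log2 signal relative to the 75th percentile of the array; circle, square and triangle are arrays 1, 2 and 3) of the detected genes of the hair cell lists and of the otolith list, each by its brightest probe. The symbols of a gene mostly overlap. The calmodulins calm1a and calm2b and the calcium buffers calb2a and pvalb8 lie at the top, with means of 7.25, 6.59, 6.68 and 6.63. The bundle motors myo6a, myo3a and myo7aa are at 1.84 and below.

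The otolith and tectorial matrix list held 10 genes on the array, and 8 were detected, with a median level of 4.17. Besides eef1a1l1 and hsp90b1, which every cell uses, the brightest was sparc, a calcium-binding matrix protein (4.94, 5.03 and 4.90 on arrays 1 to 3). Carbonic anhydrase, which supplies bicarbonate for the calcium carbonate of the stone, was detected for ca2 at 4.63, 4.62 and 4.64 and for cahz at 2.90, cahz being a gene of erythrocytes too. Tectorin beta (tectb), a protein of the membrane between otolith and bundles, was at 4.26, 4.34 and 4.26 for its brightest probe. Another probe of tectb was at 2.34 on the mean. Starmaker (stm), the acidic matrix protein that sets the shape and crystal form of the zebrafish otolith, was at 4.04, 4.01 and 4.02. No array stood apart for stm, tectb or ca2. Otopetrin 1 (otop1), needed for otoliths to form, was much dimmer and less even, at -1.53, -1.04 and -1.15. For oc90, a main otolith protein in zebrafish embryos, and for ca15b the only named probes were above background on no spot. The oc90 probe was matched by clone name or synonym, a group of which 27.3% were detected. A second probe described as starmaker, with no current gene name, was also above background on no spot.

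Ion transport genes of the endolymph were detected for 19 of 29 genes (65.5%), with a median level of 3.14. The sodium-potassium pump led, with atp1a1a.4 at 6.44, 6.41 and 6.36, atp1b2b at 4.99 and atp1b1a at 4.84, and 9 of its 13 subunit genes were detected. The sodium-potassium-chloride cotransporter slc12a2, which loads potassium into secreting cells and whose loss deafens mice, was at 4.50, 4.49 and 4.42. Of the connexins 6 of 20 were detected, gja1b (3.2), gjb8 (3.14) and gjb1a (1.65) being the brightest, and 11 were above background on no spot. Of the aquaporins, 2 of 7 were detected, aqp1a.1 (1.94) and aqp3a (1.91). The bicarbonate transporter slc4a4a was at -1.76. The proton pump subunits of this list, atp6v0a1a (3.37), atp6v1ba (3.29), atp6v1e1b (3.21) and atp6v1aa (2.28), were all detected. Foxi1, a factor of ionocytes and of the early ear, was above background on some spots.

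Among the other channel and transporter families, 78 of 141 solute carriers were detected (55.3%), slc25a5 (6.59), slc25a3b (5.52) and slc1a3a (5.1) leading, the first 2 mitochondrial carriers and the last a glial glutamate transporter. Few voltage-gated channels were on the array. Potassium channels were detected for kcnd3 (1.42) and kcnk5b (-1.07) of 4 genes, sodium channels for scn8aa (-2.03) of 2, and calcium channel subunits for cacng2a (-1.95) and cacna1c (-2.93) of 6. The TRP channel family, taken by gene name, gave 2 of 6, trpc4apa (0.39) and trpc4apb (0.28), which encode proteins associated with a channel and not channels. The 4 channel genes, pkd2, trpa1b, trpc5a and trpv6, were above background on no spot.

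Supporting cell and Notch pathway genes were detected for 20 of 27 (74.1%), with a median of 1.92. Supporting cells take up glutamate and hold back hair cell fate through Notch. The glutamine synthetase glula (5.84), the Notch modifier lfng (5.16, 5.14 and 5.13 on arrays 1 to 3) and the glutamate transporter slc1a3a (5.1) were brightest. The Notch ligand dld was at 4.16, 4.17 and 4.21, jag1b at 1.29, jag2b at 0.96 and jag1a at -1.33, while dla and dlc were above background on no spot. Sox2, the factor of sensory progenitors, was at 2.21, 2.16 and 2.12. The Notch targets hey1 (3.54), her9 (2.67) and her6 (2.63) and the receptor notch1a (-1.55) were detected, notch3 was above background on some spots and notch1b on none.

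Transcription factors that pattern the ear were detected for 30 of 42 genes (71.4%), with a median of 0.71, close to that of all detected genes. Gata2a (4.27, 4.18 and 4.21 on arrays 1 to 3), six1b (3.91) and irx1a (3.03) were brightest, followed by tbx2b (2.97), eya2 (2.95) and tbx1 (2.71). Pax2a, an early factor of the otic placode, was at 2.02, 2.03 and 2.02 for its brightest probe, and another of its probes was at -2.69, -2.63 and -2.88. Pax2a was the only one of 7 pax genes detected. Eya1 was at 1.82, hmx3a at 1.80 and dlx5a at 2.08. The neuronal factors of the ear ganglion were low, neurod1 at -1.59 and isl1a at -2.22, and neurog1 was above background on no spot. Sox genes were detected for 9 of 20, sox10 (4.01), sox4a (3.58) and sox1a (2.34) leading. Of 43 Hox genes, which set the identity of hindbrain and trunk, 1 was detected, hoxa2b at -1.54, and 34 were above background on no spot.

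Cartilage, bone and canal matrix genes were detected for 21 of 31 (67.7%), at a median of 0.56. The collagen IX chain col9a2 (5.48, 5.47 and 5.46), the proteoglycan dcn (5.13, 5.12 and 5.16) and chondromodulin (cnmd, 4.61) were brightest, and matn1 of cartilage was at 0.27. The bone factors sp7 and runx2a were above background on no spot. Among all named collagens 7 of 11 were detected, col9a1b (3.57) and col1a1a (0.27) after col9a2. Of 3 laminins, lamb1a (0.35) and lamc1 (0.08) were detected.

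Epithelial genes were detected for 24 of 34 (70.6%; median 2.43). Keratin 8 (7.14, 7.25 and 7.22), the calcium-binding protein icn (5.69) and krt5 (5.61) led, and 8 of 11 keratins were detected, krt4 at 3.68. The epithelial cadherin cdh1 was at 2.05 and the mucous cell protein agr2 at 3.41. The basal skin factor tp63 was above background on no spot in any of its 6 probes, and cyt1, a keratin of the outer skin layer, on some spots. Claudins, the proteins of tight junctions, were detected for 15 of 25, with cldnk (3.32), cldn7b (2.61) and cldn11a (2.33) at the top.

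Most of the listed genes of neurons and of myelinating glia were detected, where 64.6% of all named genes were. The methods of the study state that the dissected ears held no other tissue except perhaps what was left of the auditory nerve. Of 24 neuronal genes on the array 21 were detected (87.5%; median 1.55) and none was above background on no spot. After calb2a, the brightest were zgc:65894 (4.51), for which no role is given here, and snap25b of the synaptic vesicle fusion complex (3.56, 3.57 and 3.47). The neuronal RNA-binding protein elavl3 was at 1.72, the vesicle protein syt1a at 1.30 and the growth cone protein gap43 at 0.86. Of 19 glia and myelin genes 16 were detected (84.2%; median 3.26). Myelin protein zero (mpz), the main protein of peripheral myelin, was the 57th brightest probe at 6.87, 6.93 and 6.94 (chr2:46170084-46170143), and its second probe was at 1.63, 1.67 and 1.47. The lipoprotein apoeb was at 5.88 and the myelin proteolipid plp1b at 5.37. The Schwann cell factors sox10 (4.01) and egr2b (3.89) and the myelin claudin cldnk (3.32) were detected, gfap of astrocytes was at -0.08, and mbpb was above background on no spot in either of its probes.

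Globins and, of the muscle genes listed, myoglobin alone were among the 100 brightest probes of the pool. The globin and erythroid list had 12 of 19 genes detected (63.2%; median 2.26). Adult beta globin (hbba1) was at 7.34, 7.55 and 7.50 on arrays 1 to 3 and a probe described as the adult alpha globin aA1 at 6.74, 6.93 and 6.87. Not all globin probes were so bright. The globin genes hbaa1 and hbba2 were at 2.72 and 1.94. A second probe of ba2 was at 5.78 on the mean, and a probe described as an alpha globin was at 2.34, 3.62 and 4.12 on arrays 1 to 3. The 7 detected globin probes held 0.98% of the summed signal. Ferrochelatase (fech, 4.16), nt5c2l1 (3.32) and the erythrocyte anion exchanger slc4a1a (1.33) were also detected, and the 4 embryonic globin genes were above background on no spot. The part of blood in the pool was not tested.

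Of the 14 slow and cardiac muscle genes 5 were detected (35.7%). Myoglobin was detected with all 3 named probes, at 7.63, 7.41 and 6.72 on the mean, while most listed genes of heart and slow muscle were not detected. The gene myl13, in the study an atrial myosin light chain, was detected, its probes under the name zgc:66286 being at 2.09 to -0.95. The slow myosin heavy chain smyhc1l of the study was not matched to a probe by name. Of 3 further probes described as myoglobin, 1 was at 6.63, 7.35 and 7.25, 1 was at -1.90 on the mean and 1 was above background on no spot. The ventricular heavy chain myh7, tnnc1a and tnni1b were above background on some spots, and myh6, myl7, cmlc1, nppa and tnnt1 on no spot. Tpm3 (3.46) and atp2a2a (2.41), which other cells use too, followed myoglobin. Of the 28 fast muscle genes 20 were detected (71.4%; median 0.47). The enzymes ak1 (5.59) and eno3 (5.38) were brightest, and the muscle actin actc1b was at 3.23, 3.30 and 3.28. The contractile genes tnnt3b (2.29) and mylpfa (1.72) and creatine kinase ckma (1.17) were detected, whereas the fast heavy chains myhz1.1, myhz1.2 and myhz2 were above background on no spot. The part of muscle in the pool was not tested.

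Leukocyte genes were detected for 15 of 22 (68.2%; median -0.20), coro1a (2.98), cxcl12a (2.67, a chemokine that stromal cells also make) and lcp1 (2.27) being the brightest. The macrophage gene mpeg1.1 was at -0.20, the neutrophil peroxidase mpx and the macrophage receptor csf1ra were above background on no spot, and so were il1b, tnfa, rag1 and rag2. Antigen presentation and complement genes were detected for 13 of 17 (76.5%; median 2.24). Beta-2 microglobulin (b2m), the light chain of MHC class I, was at 5.11, 5.84 and 5.86, with array 1 lower than the other arrays. The class II chaperone cd74a was at 5.07 and b2ml at 4.96. Endothelial and mural genes were detected for 14 of 16 (87.5%; median 0.60), led by myl9a (2.94), tagln2 (2.83) and acta2 (2.5), with the endothelial genes fli1 at 0.56, kdr at 0.40 and cdh5 at -1.61. Pigment cell genes were detected for 5 of 9 (55.6%), sox10, which glia use too, dct (0.52) and gart (0.36) being the brightest, and tyr and pnp4a were above background on no spot.

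Markers of other organs were mostly not detected. Of 25 lens and photoreceptor genes 2 were detected (8%), cryabb at -0.55 and rpe65a at -2.43, and 20 were above background on no spot, cryaa and 4 cone opsins among them. Of 23 crystallins only cryabb was detected. Of 9 pituitary hormone genes 1 was detected (11.1%), lhb at -2.84, -2.86 and -2.93 for 1 probe. That probe had rank 9645 of the 9764 detected. The other lhb probe, placed 14 bases away, was at -2.57 on the mean but above background on 5 spots only. Growth hormone (gh1) was above background on 3 of the 6 spots of 1 probe and on none of the other, pomca on some spots, and prl, tshba, fshb, cga and pou1f1 on no spot. Liver and yolk genes were detected for 7 of 23 (30.4%). Retinol binding protein (rbp4, 7.06), ceruloplasmin (cp, 5.52) and apoc1 (3.46) were bright, while the liver's ttr, ambp, fga, fgb, fgg and apoa1a were above background on no spot and fabp10a on some. No vitellogenin of 2 was detected on all spots.

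**Figure D4:**
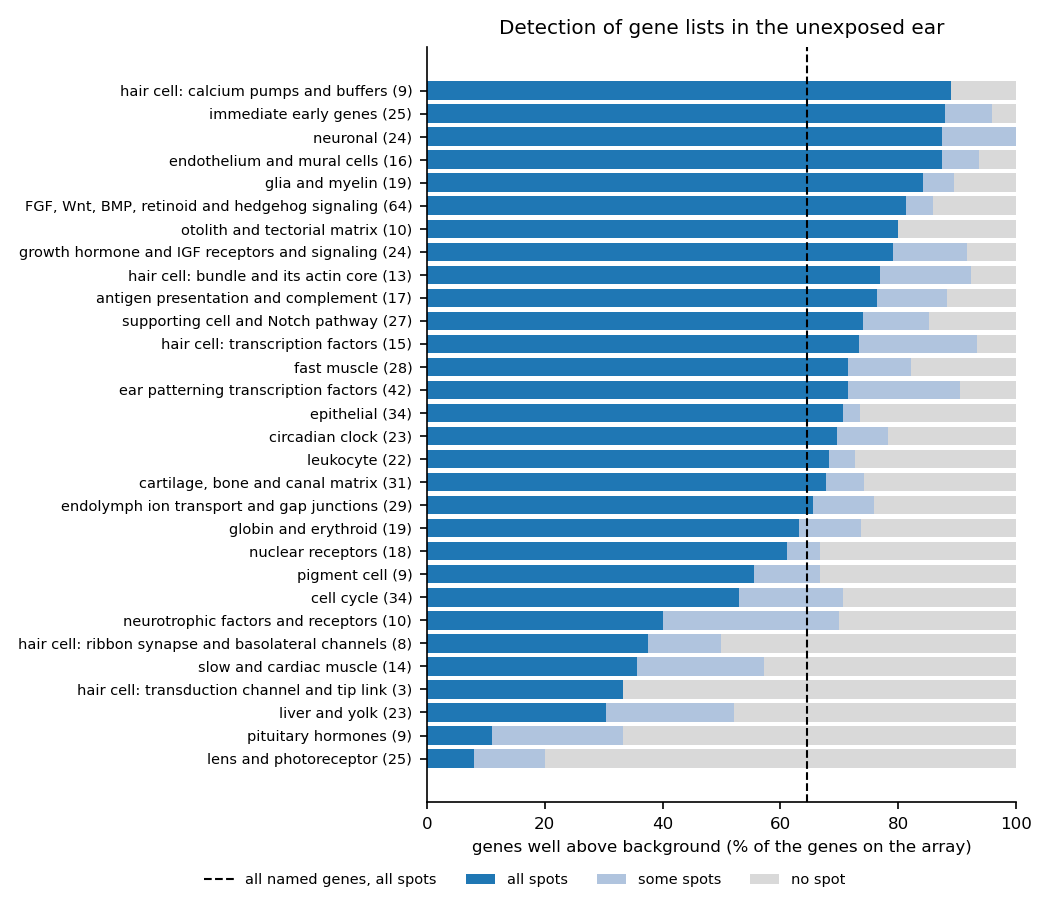
Share of the genes of each list (y axis, number of genes on the array in brackets) that were above background on all 6 spots of the control arrays, on some spots or on no spot (x axis, % of the genes on the array). The dashed line is the share of all named genes above background on all spots, 64.6%, and the lists of the lens and photoreceptors (8%) and the pituitary (11.1%) lie farthest below it.

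Lists of signaling genes lay on both sides of the 64.6% of all named genes that were detected. Of the genes of FGF, Wnt, BMP, retinoid and hedgehog signaling, which build the ear, 52 of 64 were detected (81.3%) at a median of 0.44, below that of all detected genes. Beta-catenin (ctnnb1, 4.69), the FGF feedback phosphatase dusp6 (4.25) and crabp1a (4.19) were brightest. The ligands were dimmer, fgf10a at 1.81, bmp4 at 0.69, fgf3 at -2.17, shha at -2.49 and fgf8a at -2.90. Of the growth hormone and IGF list 19 of 24 were detected (79.2%; median 1.83), with the IGF binding protein igfbp2a (5.41, 5.43 and 5.41 on arrays 1 to 3), the cytokine inhibitor socs3a (5.21, 5.24 and 5.25) and the ligand igf2b (3.96) brightest. The ligand igf1 was at -1.10 and the receptor igf1rb at -1.34. Of 10 genes of neurotrophic factors and receptors 4 were detected, ret (1.56), erbb2 (0.46), bdnf (-0.01, 0.45 and 0.58) and ngfb (0.19), and array 1 was the lowest for bdnf, which feeds the neurons of the ear. Nuclear receptors were detected for 11 of 18 (61.1%), nr2f1a (2.96), nr2f6b (1.47) and the glucocorticoid receptor nr3c1 (1.19) leading.

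Cell cycle genes were detected for 18 of 34 (52.9%; median -0.27), below the share of all genes. The inhibitors cdkn1ba (3.28, 3.28 and 3.33) and cdkn1bb (3.09, 3.08 and 3.12), which hold cells in G1, were the brightest, with the ribonucleotide reductase rrm1 at 3.02. The replication clamp pcna was at 0.35, and mki67, top2a, ccna2, ccnb2 and rb1 were above background on no spot. Cyclins were detected for 7 of 14, led by ccng1 (3.73), ccng2 (1.45) and ccnt2b (1.36), which do not drive the cycle. Immediate early genes, switched on within minutes of a stimulus, were detected for 22 of 25 (88.0%; median 1.75), with btg1 (5.94), cebpd (4.75) and egr2b (3.89) brightest. In the Fos and Jun family, junbb (3.32), jun (2.90) and junba (2.75) were detected, fosab was at 0.05, -0.02 and 0.03, and fosb was above background on some spots. Clock genes were detected for 16 of 23 (69.6%; median 0.62), nr1d2b (3.07), bmal1a (2.1) and tefa (1.52) at the top, per1b at 1.36 and per2 at -0.18, and clocka was above background on no spot. Of the other small families, parvalbumins were detected for 5 of 7 (pvalb8, pvalb6 at 3.69 and pvalb4 at 0.95), S100 proteins for 2 of 4 (s100a1 at 3.2 and s100b at 2.62) and unconventional myosins for 4 of 5 (myo6a, myo3a and myo1eb at -0.33 as the brightest).

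Of the genes that the study followed by PCR, smyhc1l, mlc1 and mhc1ze were not matched to a probe by name and were not analysed here. The study lists array fold changes for smyhc1l and mhc1ze, so that the missing match does not mean that the array lacks probes for them. The reference genes were bright by their brightest probes, eef1a1l1 at 6.24, 6.45 and 6.39 and the cyclophilin ppiaa at 5.99, 6.10 and 6.04 on arrays 1 to 3. On the mean, the other probe of eef1a1l1 was at 5.48 and the others of ppiaa were at 5.27, 3.48 and 0.46. Junba was at 2.79, 2.71 and 2.75 for 1 of its 3 probes, the other 2 probes being above background on 5 spots. The muscle light chain gene myl13, in the files zgc:66286, was at 2.09, 2.07 and 2.1 for its brightest probe, with others at 1.81, 1.13 and -0.95 on the mean. The values of atoh1a and cdkn1bb are given with their lists. Other probes of cdkn1bb were at 2.26 and 1.48 on the mean, and 1 was above background on 4 spots. Growth hormone was above background on some spots and rb1 on no spot.

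Different probes of the same gene often differed in brightness, which limits every rank given here. Of 2303 genes with more than 1 probe, all probes were detected for 983, some for 801 and none for 519. Among the 1232 genes with at least 2 detected probes the median range of their levels was 1.00, and it was over 1 for 50% and over 4 for 115 genes. Probes placed over nearly the same bases differed less. In 675 pairs of 60-base probes that shared at least 31 bases in the same orientation, both were detected in 489 pairs, with a median difference of 0.24, and 1 of the pair in 63. For the 319 pairs offset by 5 bases or less the median difference was 0.16 among the 255 with both detected.

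Some of the brightest named probes were among those that disagree. Vangl2 had a probe at 7.52, 7.67 and 7.66 on arrays 1 to 3, a second at 4.02, 6.68 and 6.78, and another that was above background on no spot although it was placed 1 base from the second. The second probe had the SD of 1.56 that was among the widest of all detected probes, array 1 being low. Retinol binding protein rbp4 was at 7.04, 7.08 and 7.06 for 1 probe, while the other 2 were above background on 4 spots and on no spot. Among the 54 named genes with a probe in the 100 brightest, 37 had more than 1 probe, all probes were detected for 25 of these, and 9 had a probe that was above background on no spot. The high levels of vangl2 and rbp4 each rest on a part of their probes, and those of coch, calb2a and hbba1 on a single probe. Other bright genes had dim probes too. The probes of hsp90ab1 ran from 8.10 to 1.32 and those of aldocb from 7.14 to 1.23. Wider ranges were seen for the detected probes of rps2 (8.04 to -1.99), gapdhs (6.95 to -2.60) and gstp1.2 (6.78 to -2.44). The detected probes of tpt1 ran from 7.16 to 2.49, and another of its probes was above background on no spot.

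**Figure D5:**
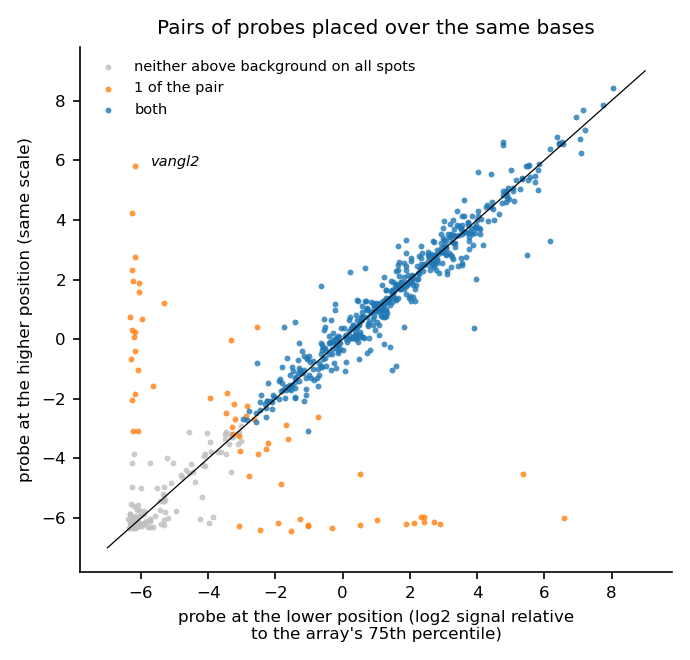
Mean level over the 3 control arrays of the probes of each pair placed over the same bases (x axis, the probe at the lower position, and y axis, the probe at the higher position, both as log2 signal relative to the 75th percentile of the array), colored by how many of the pair were detected. Most of the 489 pairs with both detected lie near the line of equality, and of the 63 pairs with 1 detected probe, 38 have the other above background on no spot, among them the marked vangl2 probes placed 1 base apart.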

How the data were processed

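The authors deposited, for each array, the output of Agilent Feature Extraction (9.5.1.1 per the file headers), in which the intensity of each spot was corrected for background and spatial trends but not scaled between arrays. RNA of 1 pool (integrity number above 7.0, 300 ng per labeling) was amplified linearly, labeled with Cy3 and hybridized to 3 arrays, so that all values describe technical replicates. The deposited tables of the authors' own comparisons hold ratios and P-values from GeneSpring GX 7.3 and 6 columns of normalized per-sample values, and neither they nor the arrays of exposed fish were used.

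Control spots were left out, as were the 2, 3 and 12 spots marked as outliers on arrays 1 to 3 (unless both spots of a probe were marked). The log2 intensity minus the log2 of the 75th percentile of the array was averaged over the 2 spots of a probe and then over arrays. No groups were compared and no test was made. Current gene names came from RefSeq (GRCz12tu): 7352 probes matched by accession, 2346 by clone name or synonym, 604 by symbol and 71 by gene number. A gene was taken at its brightest detected probe, which favors genes with many probes. Positions are on danRer2, as deposited. No probe sequence was used here.

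Named in the text are the 40 brightest probes, the 3 brightest genes of each of 30 lists and 39 families, all hair cell and otolith genes on the array, the defining genes of the other lists and the genes the study tested by PCR. A few items that this rule covers are not reported here. The members, the lists and the rule were chosen with earlier results of these data known. Alternatives were other detection rules, normexp background correction (limma 3.58.1 in R 4.3.3, offset 50), the 50th percentile of the authors' methods, linear averaging and leaving out each array. The scripts (Python 3.11.15, numpy 2.4.6, pandas 2.3.3, matplotlib 3.10.9) were tested on simulated data. The number of arrays and the signal over background limit the precision.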

Additional observations from a re-analysis of the deposited data

How the results depend on the processing

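Of 32 alternative values 27 stayed within the spread between arrays or, for counts and the median SD, within 1.5 times. For the hair cell genes that rule could not fail. The alternatives could only add genes, and all 48 on the array lie within 1.5 times the 33 detected. The share of the summed signal in the 100 brightest probes, 25.5%, became 23.1% with normexp background correction and 24.2% with no correction, and 25.04% to 26.2% when an array was left out. The median SD over arrays, 0.0464, became 0.0858 with the 50th percentile and 0.126 with normexp. The mean level of the 40 brightest probes, 7.54, became 11.01 when arrays were scaled to the 50th percentile, which moved all levels by 3.47 on the mean and no rank. Leaving out an array gave 9764 to 11163 detected probes (without array 3 the highest) and 33 to 35 of 48 hair cell genes. It gave 47 ribosomal protein probes in the 100 brightest each time. It kept 38 to 40 of the 40 brightest probes, against 35 kept with normexp. Normexp and linear means also gave 47 ribosomal protein probes. The count was 45 without the pair that shares bases, an alternative chosen after seeing the data. The 50th percentile and no filter on detection gave 47 too, and both are counted among the 27. The first moves no rank and so could not change that count. The second could hardly change it, since probes above background on 5 spots reached -1.04 at most and those on no spot -4.23. Any spot of any array gave 12989 probes, at least 1 spot on each array 10395, and the weaker flag of a signal above background 12196, with 38 hair cell genes. At least 1 spot on each array gave 429 of 624 listed genes, against 410. No paired analysis was possible because no groups were compared.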
